A study of Mus musculus with 12 samples.

Results

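This ATAC-seq comparison set stimulated, Ikaros-deficient Treg against resting wild-type Treg. Loss of the transcription factor and T cell receptor stimulation thus acted in the same cells. ATAC-seq reads open chromatin from the places where the Tn5 transposase can insert into DNA. The cells were splenic Treg sorted for YFP, which marks Foxp3 expression in both genotypes because each carried the YFP-Cre at the Foxp3 locus. WT mice were Foxp3-YFP-Cre and knock-out mice (Ikzf1-cko) added the floxed allele as Ikzf1-fl-Foxp3-YFP-Cre, so that Cre acts on Ikzf1 in Foxp3-expressing cells. The resting group (WT ex vivo) was WT Treg left unstimulated, and the stimulated group (Ikzf1-cko stimulated) was Ikzf1-cko Treg held for 4 hr on plate-bound anti-CD3 and anti-CD28, with 3 libraries in each. Ikzf1-cko ex vivo and WT stimulated, also with 3 libraries each, served to divide the joint change into its steps. A region was kept when it reached 10 CPM, a count scaled by the total of its library, in all 3 libraries of either compared group, which 21845 of the 118680 deposited regions did. Of these, 17489 passed in both groups, 2657 passed only in WT ex vivo and 1699 only in Ikzf1-cko stimulated. The region just inside this limit, OCR_1870, had 10.004 CPM in the lowest library of its higher group, and the one just outside it, OCR_1613, had 9.9763 CPM.

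Ikaros, encoded by Ikzf1, is a zinc finger protein that binds DNA at a GGGAA core and recruits chromatin remodelling and histone deacetylase complexes, and it is known in lymphocytes both for holding genes silent and for keeping lineage enhancers active. Signals from the T cell receptor and CD28 reach the nucleus through NFAT, AP-1 and NF-kB, which open enhancers of activation genes, while factors that keep T cells in a resting state, such as Foxo1, Satb1 and Bach2, give way. Regulatory T cells, marked by Foxp3, hold an activated and a resting pool.

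Counted reads per library ranged from 5197669 to 8596567 in WT ex vivo and from 9221901 to 11465957 in Ikzf1-cko stimulated, so that low counts were less precise in the resting group. The kept regions took 67.5 to 71.7% of the reads in WT ex vivo and 69.9 to 73.3% in Ikzf1-cko stimulated. All 10 T cell and Treg markers had a region over a start site, with a summed level of 212 to 215 CPM per kb in WT ex vivo and 215 to 228 in Ikzf1-cko stimulated. Of markers of other cells, 1 of 5 for B cells (Ebf1, 12 to 15.3 against 9.94 to 13.1 CPM per kb), 1 of 5 for myeloid cells (Cd68, 19.3 to 27.5 against 13.6 to 18.1) and 1 of 2 for NK cells (Klrb1c, 4.53 to 5.47 against 3.59 to 5.9) had such a region, and none of the 4 erythroid markers did. The sum of the 2 CD8 T cell markers was lower in every Ikzf1-cko stimulated library (14.7 to 16.1 CPM per kb) than in any WT ex vivo library (20.7 to 24.2), and followed the genotype, with 10.8 to 14.6 in Ikzf1-cko ex vivo and 20 to 23.4 in WT stimulated. Cd68 did not overlap between the compared groups either, while the myeloid marker Spi1 was not in the annotation used and could not be looked up. The part of such cells in the changes below was not tested. In a bulk sample, fewer cells with an open region and less opening per cell cannot be told apart.

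The 3 largest openings and the 3 largest closings in introns or between genes, leaving out regions that match the mitochondrial genome, are shown first as sequence, 300 bases of mm9 centred on each region on the plus strand, because the results return to them. Capitals mark the AP-1 letters TGANTCA and the Ikaros core GGGAA, read on either strand. The first opened window lies in an intron of Pdzd2 (chr15:12360503-12360802), the second in an intron of Dpy19l3 (chr7:36527452-36527751) and the third in an intron of Ptprj (chr2:90382931-90383230).
OCR_39111: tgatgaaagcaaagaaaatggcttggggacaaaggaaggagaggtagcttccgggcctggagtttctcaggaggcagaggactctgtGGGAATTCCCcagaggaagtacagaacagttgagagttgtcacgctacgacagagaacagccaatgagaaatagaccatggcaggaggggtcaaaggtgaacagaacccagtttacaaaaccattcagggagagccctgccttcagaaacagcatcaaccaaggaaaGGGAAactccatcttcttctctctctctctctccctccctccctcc
OCR_99853: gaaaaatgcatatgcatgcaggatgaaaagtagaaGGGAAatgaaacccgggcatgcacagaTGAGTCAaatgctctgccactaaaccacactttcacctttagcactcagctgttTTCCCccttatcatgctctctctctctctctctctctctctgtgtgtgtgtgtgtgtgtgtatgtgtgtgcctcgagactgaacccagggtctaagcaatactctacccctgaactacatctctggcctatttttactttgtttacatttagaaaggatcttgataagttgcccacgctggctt
OCR_64358: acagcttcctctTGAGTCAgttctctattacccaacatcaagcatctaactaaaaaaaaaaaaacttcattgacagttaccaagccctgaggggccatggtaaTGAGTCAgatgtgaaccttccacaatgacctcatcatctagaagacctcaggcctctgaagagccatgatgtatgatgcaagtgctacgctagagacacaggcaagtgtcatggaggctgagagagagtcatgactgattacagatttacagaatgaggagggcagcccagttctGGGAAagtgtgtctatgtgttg
The closed windows lie in an intron of the noncoding gene 4930554G24Rik (chr11:14042624-14042923), in an intron of Rras2 (chr7:121237206-121237505) and between genes, next to 4930523C07Rik (chr1:161972523-161972822).
OCR_16556: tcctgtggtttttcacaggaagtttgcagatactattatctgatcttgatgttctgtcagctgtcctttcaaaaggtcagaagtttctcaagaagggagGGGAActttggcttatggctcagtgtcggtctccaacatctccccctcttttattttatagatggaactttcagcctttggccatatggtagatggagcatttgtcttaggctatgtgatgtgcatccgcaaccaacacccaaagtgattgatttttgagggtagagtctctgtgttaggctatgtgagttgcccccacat
OCR_103431: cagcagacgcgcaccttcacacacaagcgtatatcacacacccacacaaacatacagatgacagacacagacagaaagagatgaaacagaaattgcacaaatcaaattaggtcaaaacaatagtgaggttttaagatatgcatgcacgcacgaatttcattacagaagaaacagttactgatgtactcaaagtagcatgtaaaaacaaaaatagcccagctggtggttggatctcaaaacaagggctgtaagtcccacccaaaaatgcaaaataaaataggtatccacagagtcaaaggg
OCR_6594: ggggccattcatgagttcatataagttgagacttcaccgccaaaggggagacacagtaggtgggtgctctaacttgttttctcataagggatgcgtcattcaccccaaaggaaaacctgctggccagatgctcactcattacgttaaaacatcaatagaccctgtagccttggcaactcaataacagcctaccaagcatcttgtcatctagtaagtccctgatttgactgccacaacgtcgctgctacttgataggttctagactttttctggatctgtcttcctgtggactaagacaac
The Pdzd2 window has 3 GGGAA matches, of which 2 lie directly next to each other, on opposite strands, in a stretch that also matches the NF-kB letters GGGANTTCC. The Dpy19l3 window has 1 AP-1 match and 2 GGGAA matches, and the Ptprj window has 2 AP-1 matches and 1 GGGAA match. Of the closed windows, the one on chromosome 11 has 1 GGGAA match and no AP-1 match, and the Rras2 and chromosome 1 windows have neither.

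Across the kept regions, 163 opened and 641 closed in Ikzf1-cko stimulated relative to WT ex vivo. A region was called at an adjusted p under 0.05 and a log2 fold change beyond 1 in edgeR's quasi-likelihood test, adjusted over all 69957 regions tested. These are 0.746% and 2.93% of the kept regions, beside 0.955% opened and 3.33% closed among all regions tested. Without the fold threshold 6165 regions were higher and 4957 lower, so that most differences were smaller than a log2 fold change of 1. The 3 libraries of one group did not overlap with those of the other in any of the 804 called regions. Libraries that did not overlap were common in the kept regions as a whole, at 34.9% higher and 27.5% lower in Ikzf1-cko stimulated. The median log2 fold change was 0.06 over the kept regions and -0.07 over all regions tested.

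Most calls came from regions near the CPM limit. Among regions that passed in both groups 26 opened and 133 closed, while 137 of the 163 openings had passed only in Ikzf1-cko stimulated and 508 of the 641 closings only in WT ex vivo, and regions kept through one group alone are bound to be higher there. In the fifth of kept regions with the lowest mean CPM, 106 opened and 389 closed, against 1 and 12 in the fifth with the highest. The balance between openings and closings moved with the scaling. After a loess correction for the GC content of the region, 261 opened and 384 closed, a share of 40.5% opened against 20.3% without it, and 149 of the 163 openings and 368 of the 641 closings were called both ways. Closed regions had a median GC content of 46.7% and opened regions of 48.3%, against 53.5% over all kept regions. The plot of change against level shows this spread.

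**Figure D1:**
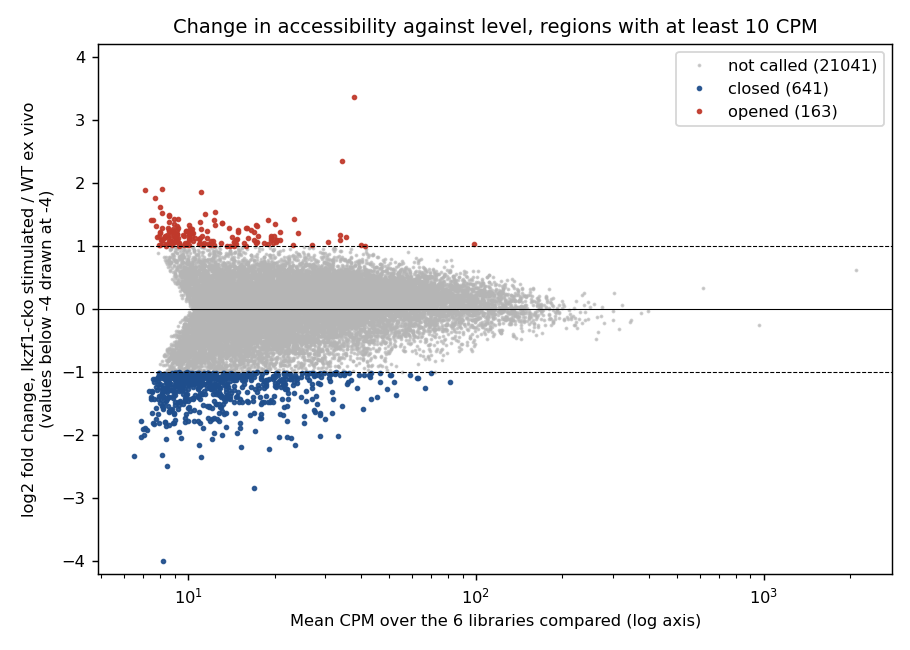
Log2 fold change (Ikzf1-cko stimulated over WT ex vivo, from edgeR) of each of the 21845 kept regions against its mean CPM over the 6 libraries compared, on a log axis. Red points are the 163 opened and blue points the 641 closed regions, dashed lines mark a log2 fold change of 1 and -1, OCR_16556 is drawn at the lower edge, and the called regions lie mostly at the low end of the CPM axis.

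Among the 10 largest openings, the top 2 lie side by side on chromosome 1 (OCR_759, 24619838 to 24620087, and OCR_758, 24619247 to 24619705, the latter over the start site of the predicted gene Gm10222). OCR_759 had 11.9, 5.17 and 4.42 CPM in WT ex vivo and 67.0, 72.4 and 64.8 CPM in Ikzf1-cko stimulated (log2 fold change 3.36, SE 0.16, edgeR adjusted p = 1.3e-15). It was as high in Ikzf1-cko ex vivo, with 62.0, 60.6 and 77.4 CPM, and as low in WT stimulated, with 4.46, 4.75 and 6.24 CPM, so that its level followed the genotype. Both sequences match the mitochondrial genome over their whole length, at 99.6% and 99.8% identity, and reads from nuclear and mitochondrial DNA cannot be told apart there. Of the 2 other kept regions with such a match, on chromosomes 2 and 4, neither was called (log2 fold changes of -0.51 and -0.35).

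The third opening lay over the start site and exon 1 of Ctnnd1 (OCR_64204, chromosome 2, 84490559 to 84491260), which encodes p120-catenin, a protein of cadherin junctions with a part in Wnt signalling. It rose from 4.62, 3.58 and 2.33 CPM in WT ex vivo to 12.9, 13.0 and 12.1 CPM in Ikzf1-cko stimulated (log2 fold change 1.91, SE 0.19, edgeR adjusted p = 5.2e-09). The region was more open in Ikzf1-cko Treg taken ex vivo, with 18.4, 15.3 and 14.7 CPM. It fell when these cells were stimulated (log2 step -0.36, edgeR adjusted p = 0.044). Its 3 WT stimulated libraries (2.81, 2.01 and 2.7 CPM) overlapped with WT ex vivo. An intronic region of Pdzd2 (OCR_39111, chromosome 15, 12360278 to 12361026), a PDZ domain protein gene, rose from 2.69, 3.44 and 2.91 CPM to 11.3, 11.1 and 11.3 CPM (log2 fold change 1.88, SE 0.18, edgeR adjusted p = 1.9e-09). Here Ikzf1-cko ex vivo lay in between, with 8.53, 8.65 and 8.29 CPM. The start site of Gm4951 on chromosome 18 (OCR_55715), a predicted gene, showed the same order of groups, with a mean of 4.84 CPM in WT ex vivo, 10.2 in Ikzf1-cko ex vivo, 6.21 in WT stimulated and 17.3 in Ikzf1-cko stimulated (log2 fold change 1.85, SE 0.17).

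Ppp1r13l, which encodes the p53 and RelA inhibitor iASPP (start site and first exons, OCR_99069, mean 4.17 to 12 CPM), and Atg9b, an autophagy gene (intron, OCR_84829, mean 6.02 to 16.9 CPM), were already open in Ikzf1-cko ex vivo, at 10.2 and 17.7 CPM. An intronic region of Ptprj (OCR_64358, chromosome 2, 90382728 to 90383432), which encodes the receptor phosphatase CD148, took both steps, from 6.54, 7.55 and 5.0 CPM in WT ex vivo through 12.2, 10.4 and 7.86 CPM in Ikzf1-cko ex vivo to 20.9, 17.6 and 16.6 CPM when these cells were stimulated (log2 fold change 1.54, SE 0.17, edgeR adjusted p = 6.1e-08). Its WT stimulated libraries, at 7.11, 8.4 and 5.41 CPM, overlapped with WT ex vivo, and the response to stimulation did not pass the test of a difference between genotypes (interaction 0.68, edgeR adjusted p = 0.11). The exonic region of Loxl2 (OCR_36416, exon 6, mean 3.53 to 11.8 CPM), a lysyl oxidase gene, was the one among the 10 whose stimulation step in WT (log2 1.23) was larger than its genotype step (0.98). The intronic region of Dpy19l3 (OCR_99853), a C-mannosyltransferase gene, rose from 3.92 to 12.1 CPM on average (log2 fold change 1.62, SE 0.18).

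The region with the largest loss of reads stood apart from the other closings named. OCR_16556, in an intron of 4930554G24Rik on chromosome 11 (14042402 to 14043145), had 15.6, 15.9 and 17.7 CPM in WT ex vivo and 14.2, 11.5 and 15 CPM in WT stimulated, and 0 reads in all 3 Ikzf1-cko stimulated libraries. Against a floor of 3 reads per library it was at least 55.1-fold lower. Ikzf1-cko ex vivo was equally empty, with 0 CPM in 2 libraries and 0.0727 CPM in the third. The region lies 2.37 Mb beyond the end of Ikzf1, on the same chromosome as the floxed gene. A difference in the DNA sequence between the mice at this place was not tested, and from these counts closed chromatin and DNA that yields no aligned reads cannot be told apart.

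The second closing was in an intron of Rras2 (OCR_103431, chromosome 7, 121237048 to 121237663), which encodes TC21, a Ras-family GTPase that associates with the T cell receptor. It fell from 32.7, 27.2 and 29.3 CPM in WT ex vivo to 4.66, 3.56 and 4.19 CPM in Ikzf1-cko stimulated (log2 fold change -2.83, SE 0.15, edgeR adjusted p = 4.3e-15). Each single step stopped short of this, with 10.2, 7.99 and 8.98 CPM in Ikzf1-cko ex vivo and 9.59, 9.32 and 7.69 CPM in WT stimulated. The 2 other closed regions of Rras2, also intronic, had log2 fold changes of -1.25 (OCR_103429) and -1.10 (OCR_103435).

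At the other closings named the genotype step ex vivo passed an edgeR adjusted p of 0.05, and so did the stimulation step within Ikzf1-cko, except at OCR_5434 (-0.50, edgeR adjusted p = 0.12). An intergenic region 97.6 kb upstream of Tle4 (OCR_58177, chromosome 19, 14769764 to 14770474), which encodes a Groucho-family corepressor, went from 31.0, 31.0 and 32.6 CPM in WT ex vivo to 6.4, 7.23 and 6.63 CPM in Ikzf1-cko stimulated, with 21.0, 15.8 and 15.7 CPM in Ikzf1-cko ex vivo (log2 fold change -2.22, SE 0.14, edgeR adjusted p = 2.6e-13). An intron of Itpr2 (OCR_98249), the gene of an inositol trisphosphate receptor that releases calcium, fell from 39.8, 35.1 and 40.4 CPM to 8.13, 7.12 and 10.2 CPM (log2 fold change -2.16, SE 0.12, edgeR adjusted p = 6.7e-14). At both of these the stimulation step within Ikzf1-cko (-1.38 in each) was larger than the genotype step ex vivo (-0.84 and -0.79). At the intron of Gabrb1 (OCR_86705, 18.5 to 3.64 CPM on average), a GABA receptor subunit gene, the genotype step was the larger (-1.72 against -0.63) and the Ikzf1-cko libraries ex vivo (4.56, 5.16 and 7.44 CPM) and stimulated (2.49, 5.29 and 3.14 CPM) overlapped, as it was at OCR_90548 in an intron shared by Baiap2l1 and Bri3 (-1.59 against -0.57). The remaining closings named, OCR_6594, OCR_5434, OCR_36962 and OCR_25181, were intergenic and had log2 fold changes of -2.49, -2.33, -2.31 and -2.18.

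**Figure D2:**
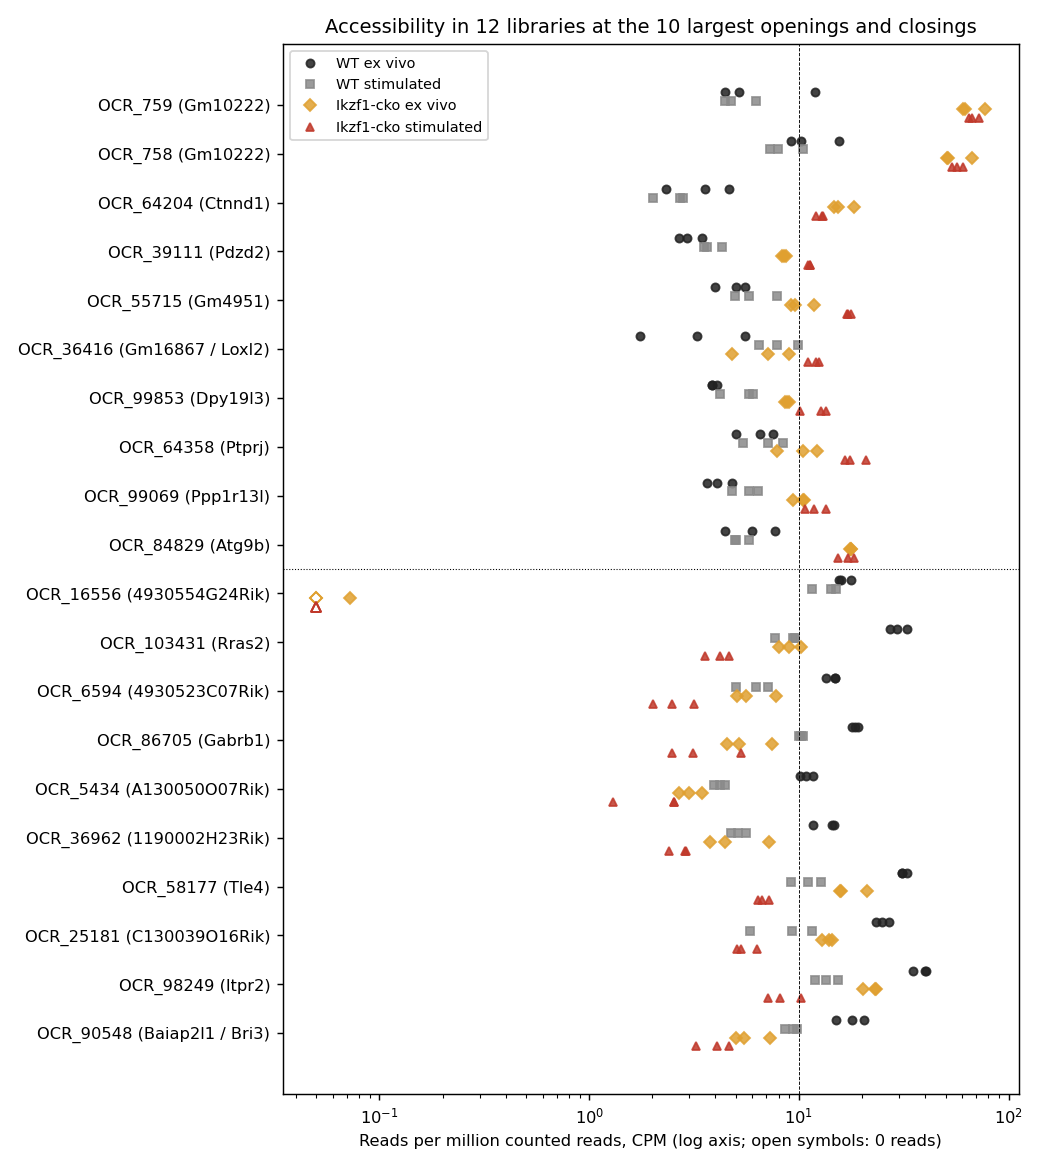
CPM (log axis) of the 10 largest openings (above the dotted line) and the 10 largest closings (below it) in each of the 12 libraries, with 1 symbol per library and shapes and colours for the 4 groups. Open symbols at the left edge stand for 0 reads, the dashed line marks 10 CPM, and in each row the WT ex vivo and Ikzf1-cko stimulated symbols do not overlap.

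Around Ikzf1 itself (chromosome 11, 11585006 to 11672929), 7 kept regions lay over the gene and none was called. The intronic region OCR_16491 (11636813 to 11637437) was the lowest of them, at 17.0 CPM in WT ex vivo and 10.8 CPM in Ikzf1-cko stimulated (log2 fold change -0.68, SE 0.14, edgeR adjusted p = 0.00057), and its level in WT stimulated was 7.82 CPM. Of its 2 kept start site regions, OCR_16469 had 34.0 and 38.9 CPM (log2 fold change 0.19) and OCR_16471 had 23.2 and 23.5 CPM (0.01). As the last exon held no tested region, the genotype of the libraries could not be read from the locus. Of 28 regions tested over the gene, 2 intronic ones below the CPM limit were higher beyond both thresholds, OCR_16480 (3.1 to 9.62 CPM, log2 fold change 1.67) and OCR_16489 (2.18 to 5.28 CPM, 1.29). Within 5 Mb of the gene, 5 of 31 kept regions closed (16.1%), against 2.92% of those elsewhere, and none opened. Beside OCR_16556 they were the start site of Tns3 (OCR_16324, 14.6 to 6.68 CPM, log2 fold change -1.09), 2 intergenic regions near Ramp3 (OCR_16259 at -1.09 and OCR_16260 at -1.38) and 1 near Sec61g (OCR_16582 at -1.25). Ikzf1-cko ex vivo levels of the regions near Ramp3 were 91.8 and 7.84 CPM, beside 85.1 and 11.6 CPM in WT ex vivo.

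Openings and closings were rarely at start sites. A start site of a protein-coding transcript lay under 17.8% of openings and 5.15% of closings, against 45.7% of the kept regions. Introns held 37.4% of openings and 44.8% of closings, against 22.5%, and intergenic regions 33.7% and 39.0%, against 23.3%. Kept regions at start sites had a median log2 fold change of 0.20 and those in introns of -0.17, which the correction for GC content brought to 0.12 and -0.03. The share of all reads on start site regions was also higher in every Ikzf1-cko stimulated library (47.8 to 49.8%) than in any WT ex vivo library (42.9 to 45.6%), and its part in this difference was not tested. The median distance to the nearest start site was 18.9 kb for openings, 27.6 kb for closings and 1.6 kb for all kept regions.

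To see which step carried the joint change, it was divided into the genotype step ex vivo and the stimulation step within Ikzf1-cko, which share the Ikzf1-cko ex vivo libraries and sum to it. For openings the median log2 value was 0.72 for the genotype step and 0.46 for the stimulation step. For closings these medians were -0.70 and -0.57. The genotype step was the larger one in 104 of 163 openings and 367 of 641 closings. Both steps exceeded a log2 value of 0.5 in the direction of the joint change in 26 openings and 173 closings, the genotype step alone did so in 89 and 270, and the stimulation step alone in 48 and 198. Taken the other way round, the stimulation step in WT had a median of 0.31 at openings and -0.86 at closings, and the genotype step in stimulated Treg of 0.90 and -0.47. Over all kept regions the median stimulation step was -0.26 in WT and -0.04 in Ikzf1-cko, and the kept regions took only 56.6 to 60.4% of reads in WT stimulated.

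**Figure D3:**
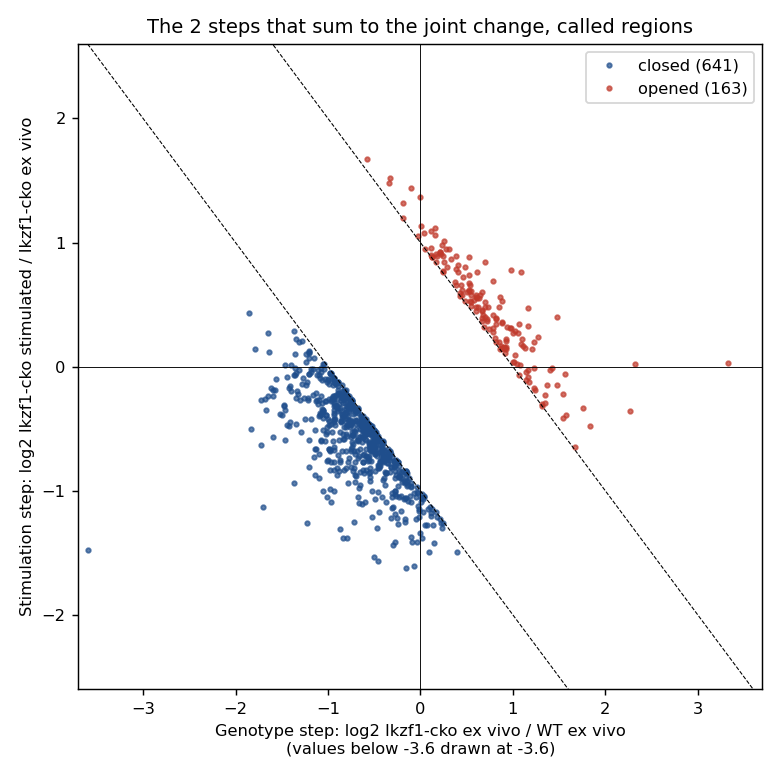
For each called region, the log2 genotype step ex vivo (horizontal axis) and the log2 stimulation step within Ikzf1-cko (vertical axis), with openings in red and closings in blue. Dashed lines mark where the sum of the steps is 1 or -1, which the threshold for a call sets as the inner limit of the points. Position along a line gives the split between the steps when they are taken in this order. OCR_16556 is drawn at the left edge.

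The response to stimulation differed between genotypes at none of the 20 named regions by the interaction test (edgeR, adjusted p under 0.05). At an unadjusted p under 0.05 there were 3 such regions, and DESeq2 found 0 after adjustment and 3 before it. Among all openings 24 passed (21 with a more positive response in Ikzf1-cko) and among closings 93 did (82 more positive), beside 16.6% of the kept regions and 7.48% of all regions tested. The values of 4 of the regions with the smallest interaction p, chosen after their values were seen, show what this looked like. A region in an intron of Klc1 (OCR_26711), a kinesin light chain gene, went from 7.68 to 5.1 CPM with the genotype and then rose with stimulation, by a log2 value of 1.67 in Ikzf1-cko against 0.36 in WT (interaction 1.31, SE 0.23, edgeR adjusted p = 0.00075). In an intron of Cd226 (OCR_57431), which encodes the activating receptor DNAM-1, the stimulation step was 0.77 in Ikzf1-cko and -0.23 in WT (interaction 1.00, SE 0.19, edgeR adjusted p = 0.0015). The exonic region of Lamb1 (OCR_23002), a laminin gene, went the other way, with a genotype step of 1.57 and stimulation steps of -0.39 in Ikzf1-cko and 0.79 in WT (edgeR adjusted p = 0.0014). The intergenic closing OCR_114654 had a genotype step of -0.94 and a stimulation step in WT of -1.17, with a stimulation step of -0.09 in Ikzf1-cko (edgeR adjusted p = 7.4e-05).

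Genes were then read in lists chosen by role, each with the kept regions whose nearest protein-coding start site belongs to a listed gene within 100 kb. Of these lists, naive and resting T cell genes held the most closings. Of 132 regions at 16 genes, 11 closed (8.33%, beside 2.93% of all kept regions) at 6 genes and none opened (0.746% of all), with a median log2 fold change of -0.29 that was negative under each scaling tried (-0.20 to -0.32). After the correction for GC content 4 of them closed and 1 region opened. The 11 closings without that correction were all in introns or between genes. Of all kept regions in introns 5.83% closed and of those between genes 4.92%, against 0.33% at start sites. An intronic region of Ccr7 (OCR_20347), the receptor that brings naive T cells to lymph nodes, fell from 14.8, 21.1 and 19.7 CPM in WT ex vivo to 5.42, 5.7 and 5.76 CPM in Ikzf1-cko stimulated (log2 fold change -1.74, SE 0.16, edgeR adjusted p = 2.1e-09). Ikzf1-cko ex vivo, at 12.8, 16.7 and 16.6 CPM, overlapped with WT ex vivo, and the stimulation step within Ikzf1-cko was -1.44. WT stimulated, at 8.1, 12.6 and 9.77 CPM, lay above Ikzf1-cko stimulated. Taken the other way round, the stimulation step in WT was -0.89 and the genotype step in stimulated Treg -0.84. The region over the Ccr7 start site (OCR_20348) fell less, from 43.1, 40.8 and 40.2 CPM to 30.4, 27.5 and 30.3 CPM. It was not called (log2 fold change -0.49, edgeR adjusted p = 8.1e-05).

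An intergenic region near S1pr1 (OCR_74143), the receptor for exit from lymphoid tissue, fell from 16.9, 13.1 and 14.9 CPM to 4.34, 4.58 and 4.54 CPM (log2 fold change -1.72, SE 0.18, edgeR adjusted p = 1.1e-08), with 11.1, 9.67 and 6.92 CPM in Ikzf1-cko ex vivo. At Foxo1, a factor of quiescence, an upstream region (OCR_71319) fell from 11.7, 12.2 and 15.7 CPM to 6.18, 5.09 and 5.93 CPM (log2 fold change -1.22). Its Ikzf1-cko ex vivo libraries overlapped with WT ex vivo at 12.6, 10.9 and 12.4 CPM. Its WT stimulated libraries, at 4.8, 5.12 and 4.99 CPM, overlapped with Ikzf1-cko stimulated. Bach2, a repressor of effector genes, had 4 closings of 17 kept regions, all intronic, with log2 fold changes from -1.19 (OCR_77798) to -1.01 (OCR_77788). The call was lost in 8 of 15 alternatives at OCR_77788, in 3 at OCR_77799 and in 1 at OCR_77795. Satb1, a chromatin organizer, had 3 of 12, from -1.13 (OCR_51075) to -1.04 (OCR_51066), and Foxp1 had 1 (OCR_95284, -1.08), with the call lost in 4 alternatives at OCR_51066 and in 3 at OCR_95284. All but the first region of Bach2 in these lists of closings were named after their values were seen. At the 3 Satb1 regions the genotype step ex vivo was -0.93 to -0.62, while at Bach2 it was -0.04 at OCR_77788 and -0.74 at OCR_77798. In the other order, the stimulation step in WT was -0.99 at OCR_51066, -0.97 at OCR_51075 and -0.49 at OCR_51093. The genotype step in stimulated Treg was -0.05, -0.17 and -0.61 there. For Bach2 these steps were -1.28 and 0.27 at OCR_77788 and -1.02 and -0.17 at OCR_77798. The broad start site regions of both genes were not called (Bach2 OCR_77752 at -0.04, Satb1 OCR_51090 at -0.02).

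TCR-induced factors, the early genes of activation, had 98 kept regions with a median log2 fold change of 0.26, of which 2 opened and 1 closed. Over all kept regions 0.746% opened and 2.93% closed, so that single calls in this list and those that follow are near the background. A region 41.7 kb upstream of Egr2 (OCR_12095), an early growth response factor, held 4.43, 6.23 and 4.77 CPM in WT ex vivo and 11.8, 11.2 and 11.4 CPM in Ikzf1-cko stimulated (log2 fold change 1.14, SE 0.17, edgeR adjusted p = 3.8e-06). Both single steps overlapped with WT ex vivo, at 5.47, 5.74 and 4.36 CPM in Ikzf1-cko ex vivo and 5.79, 5.66 and 5.2 CPM in WT stimulated, and the response to stimulation differed between genotypes (interaction 1.03, edgeR adjusted p = 0.011). The opening nearest to Cd69, an activation antigen (OCR_97050), rose from a mean of 11.1 to 23.6 CPM, with 16.4 in Ikzf1-cko ex vivo and 17.1 in WT stimulated. The closing of this list lay in an exon of Atp9b, upstream of Nfatc1 (OCR_56953, -1.03), and its call was lost in 6 of 15 alternatives. None of the 20 start site regions of these genes was called, and they ranged from -0.20 to 0.63.

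NF-kB genes had 1 opening and 3 closings of 53 regions. The opening was in an intron of Rel (OCR_16954), which encodes c-Rel. It held 5.77, 7.29 and 5.58 CPM in WT ex vivo and 12.1, 14.7 and 16.4 CPM in Ikzf1-cko stimulated (log2 fold change 1.21, SE 0.16, edgeR adjusted p = 8.6e-07). WT stimulated overlapped with Ikzf1-cko stimulated, at 11.7, 14.3 and 12.9 CPM (genotype step in stimulated Treg 0.16, edgeR adjusted p = 0.37). The closings were 2 neighbouring regions downstream of the Tnfaip3 start site (OCR_9712 at -1.14 and OCR_9711 at -1.03), the gene of the NF-kB inhibitor A20, and an intronic region of Nfkb1 (OCR_75084 at -1.13). The call was lost in 6 of 15 alternatives at OCR_9711 and in 1 at each of the other 2. At Tnfaip3 the fall lay in the stimulation step, since OCR_9711 held 27.5, 30.1 and 33.0 CPM in WT ex vivo, 36.3, 36.1 and 33.8 CPM in Ikzf1-cko ex vivo and 14.0, 16.3 and 14.3 CPM in Ikzf1-cko stimulated. After the correction for GC content 2 regions of this list opened and none closed.

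Of 30 regions at cytokine genes 1 opened, over the start site of Ebi3 (OCR_51249), which encodes the subunit shared by IL-27 and IL-35. It had 4.62, 4.77 and 4.3 CPM in WT ex vivo, 7.95, 7.85 and 7.61 CPM in Ikzf1-cko ex vivo, 9.76, 8.95 and 9.57 CPM in WT stimulated and 14.7, 10.9 and 12.4 CPM in Ikzf1-cko stimulated (log2 fold change 1.47, SE 0.16, edgeR adjusted p = 4.8e-08). The groups did not overlap, and each step was an increase. Start sites of the inflammatory cytokines Ifng and Tnf stayed below 10 CPM and were not among the kept regions, with log2 fold changes of 1.14 (OCR_15114, 3.32 to 7.34 CPM) and 1.18 (OCR_50259, 3.69 to 8.24 CPM). So did a start site region of Lag3, an inhibitory receptor (OCR_96709, 1.04), and one of Foxp3 (OCR_116779, 3.44 to 8.05 CPM, 1.22). The stronger of 2 start site regions of Foxp3 (OCR_116782) overlapped between the groups. It held 10.9 to 13.2 CPM per kb in WT ex vivo and 12.8 to 18.0 in Ikzf1-cko stimulated.

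Treg identity genes as a list had 1 opening of 83 regions, a median log2 fold change of -0.02 and no closing. The opening, 11.7 kb upstream of Klrg1 (OCR_96574), a receptor of differentiated effector cells, had a log2 fold change of 1.00 and was at 3.66, 6.89 and 5.82 CPM in WT ex vivo and 10.7, 12.9 and 10.3 CPM in Ikzf1-cko stimulated, and the call was lost in 3 of 15 alternatives. The start site of Il2ra, the high-affinity IL-2 receptor chain, overlapped between groups (18.9, 19.9 and 22.8 against 23.7, 21.4 and 26.5 CPM), as did that of Ctla4. Of 42 regions at Notch and Wnt genes 2 opened, that of Ctnnd1 above and an upstream region of Rbpj (OCR_86130, 5.12 to 11.8 CPM, log2 fold change 1.18), the DNA-binding partner of Notch, and 1 closed, in an intron of Znrf3 (OCR_16147, -1.10). The start site of Wisp1, a Wnt-induced secreted protein, rose from 7.5, 11.3 and 10.0 CPM to 17.2, 19.2 and 17.4 CPM (log2 fold change 0.88, edgeR adjusted p = 1.4e-05), short of the fold threshold.

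Feedback regulators of signalling had 1 opening and 2 closings of 81 regions. Both closings were at Cblb, a ubiquitin ligase that restrains T cell activation. The stronger region (OCR_46247, chromosome 16, 52142909 to 52143714) fell from 61.4, 58.2 and 63.7 CPM to 16.3, 19.6 and 24.9 CPM (log2 fold change -1.58, SE 0.11, edgeR adjusted p = 1.1e-11), with 41.6, 39.5 and 30.4 CPM in Ikzf1-cko ex vivo and 20.8, 21.2 and 20.6 CPM in WT stimulated. The fall with stimulation was smaller in Ikzf1-cko than in WT (interaction 0.68, edgeR adjusted p = 0.014). The opening lay upstream of Dusp5 (OCR_59468), a phosphatase of ERK. It held 5.0, 5.7 and 6.51 CPM in WT ex vivo and 5.14, 5.6 and 4.53 CPM in Ikzf1-cko ex vivo. WT stimulated held 10.4, 10.0 and 8.94 CPM and Ikzf1-cko stimulated 13.8, 11.4 and 13.2 CPM. Chemokine receptor genes had 1 closing of 20 regions (Ccr9, OCR_116597, -1.03, call lost in 4 of 15 alternatives). T cell identity markers had 1 opening of 31 (an intron of Zap70, the kinase at the T cell receptor, OCR_1050, 1.14). At OCR_1050 the mean was 8.75 CPM in WT ex vivo, 17.8 in WT stimulated and 19.7 in Ikzf1-cko stimulated.

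No region was called for costimulatory and inhibitory receptors (45 regions), interferon and Th1 genes (37), activation metabolism (30), the Ikaros family (15), markers of other cell types (10) or housekeeping genes (20), in edgeR's quasi-likelihood test with both thresholds, and at 0.746% opened and 2.93% closed over all kept regions lists of this size hold few calls or none. Just short of the fold threshold, and named after their values were seen, were regions near Btla (OCR_45818, -0.98) and Pdcd1 (OCR_3845, 0.96) and the start site of Il12rb2, an IL-12 receptor chain (OCR_93802, from 14.4, 15.4 and 14.0 to 9.0, 5.7 and 7.67 CPM, -0.97). Housekeeping genes had the highest median of any list, 0.33, above that of the TCR-induced factors (0.26), and 12 start site regions among them a median of 0.34.

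**Figure D4:**
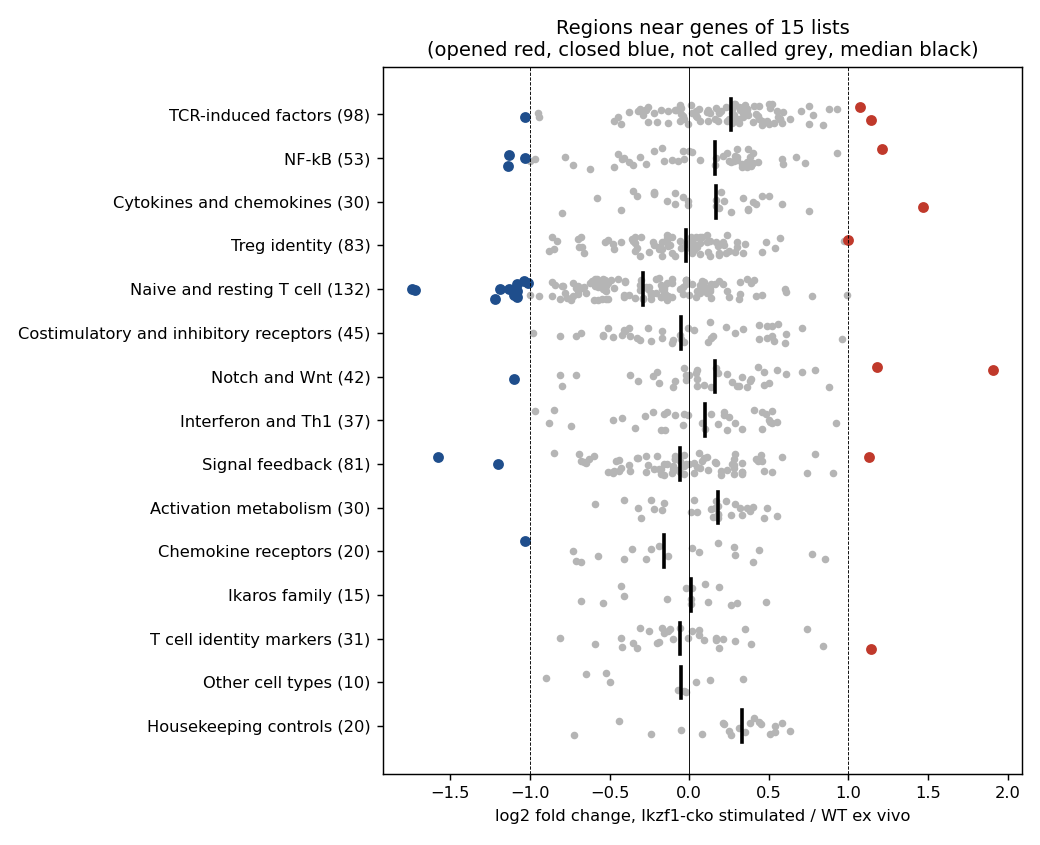
Log2 fold change (Ikzf1-cko stimulated over WT ex vivo) of the kept regions near genes of the 15 lists, with the number of regions in brackets, 1 point per region and a black bar at the median. Red points opened and blue points closed, the dashed lines mark 1 and -1, and the 11 blue points of the naive and resting T cell genes are the most of any list.

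Closings also gathered at single genes, while over all kept regions 2.93% closed and 0.746% opened. Those named here were chosen after their values were seen, from the genes nearest to at least 3 closings or 2 openings within 100 kb. Lass6, a ceramide synthase gene, had 4 closings of 6 kept regions, with log2 fold changes from -2.04 (OCR_63331, 36.8 to 8.91 CPM) to -1.18. Dusp10, a phosphatase of JNK and p38, had 4 of 12, from -1.73 (OCR_8049, 18.8 to 5.7 CPM) to -1.43. Mef2c, a MADS-box factor, had 4 of 5 (-1.33 to -1.04), and Smad7, an inhibitor of TGF-beta signalling, 3 of 21, from -1.66 to -1.42. The 4 closings in Itpkb, which encodes an inositol trisphosphate kinase, lie nearest to Gm5069 and had genotype steps between -0.17 and 0.08 and stimulation steps in Ikzf1-cko between -1.28 and -1.03. Upstream of Ifngr2, a chain of the interferon gamma receptor, 2 regions closed. OCR_47744 had a joint log2 fold change of -2.02, with a genotype step ex vivo of -1.67 and a stimulation step within Ikzf1-cko of -0.35. OCR_47741 had -1.81, with -1.35 and -0.46. Taken the other way round, their stimulation steps in WT were -1.37 and -1.04 and their genotype steps in stimulated Treg -0.65 and -0.76. At OCR_47744 the response to stimulation differed between genotypes (interaction 1.02, edgeR adjusted p = 0.024). Pairs of openings lay near Macf1 (1.02 and 1.09), Atxn7l1 (1.27 and 1.16), Nfia (1.04 and 1.21), St3gal1 (1.16 and 1.12), Phf15 (1.14 at both) and Cdk9 (1.23 and 1.01). Some of these calls were lost in alternatives, of 15 each. At Mef2c this held for OCR_31101 (5), OCR_31100 (2) and OCR_31107 (2), at Lass6 for OCR_63321 (1) and at Itpkb for OCR_7812 (5) and OCR_7828 (2). Among the openings it held for OCR_81723 at Macf1 (5), OCR_61619 at Cdk9 (3), OCR_80379 at Nfia (2) and OCR_41144 at St3gal1 (1). Apart from these genes, and also picked out after its values were seen, an intronic region of Bcl2l11 (OCR_66118), which encodes the death-promoting protein Bim, fell from 53.4 to 13.2 CPM on average (log2 fold change -2.01, SE 0.11, edgeR adjusted p = 2.4e-14).

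The letters under openings and closings were counted in the central 300 bases on either strand, for 14 motifs and as shares with no test. AP-1 letters (TGANTCA) were in 27% of opened windows (exact 95% binomial interval 20.3 to 34.5%, for counting error only), 15.1% of closed windows (12.4 to 18.1%) and 12.6% of all kept windows. Away from start sites these shares were 32.1%, 15.6% and 20.1%, so that closed regions lay below the kept regions there. NFAT letters (TGGAAA) were in 33.7% of opened, 16.8% of closed and 18.6% of all windows. NF-kB letters (GGGANTTCC) were in 11% of opened windows (6.68 to 16.9%), 0.936% of closed (0.344 to 2.03%) and 2.53% of all, and these overlap with the GGGAA core, which was in 68.7%, 51.2% and 60.0%. Forkhead (TGTTTAC, 10.4%, 3.9% and 3.52%), STAT (TTCNNNGAA, 16.6%, 8.42% and 8.04%) and NR4A letters (AAAGGTCA, 8.59%, 2.5% and 1.78%) were likewise highest in opened windows.

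Closed windows held more TCF/LEF (CTTTGAT, 9.2% against 4.08% of all windows, and 6.75% of opened) and RUNX letters (TGTGGTT, 14.7% against 8.79%, and 7.98% of opened). Away from start sites the difference was smaller for both, at 9.7% of closed against 6.35% of all windows for TCF/LEF and 14.8% against 13.7% for RUNX. ETS letters (CCGGAAG) were in 4.91% of opened and 3.12% of closed windows, below the 9.48% of all. KLF (CCCCACCC, 7.36%, 11.1% and 10.1%) and EGR letters (GTGGGCG, 6.75%, 3.12% and 8.68%) were not higher in opened windows than in all, but away from start sites EGR letters were in 5.22% of opened and 4.42% of all windows. CRE letters (TGACGTCA) and T-box letters (AGGTGTGA) were in 0 of 163 opened windows, which allows a share of up to 2.24% by the exact interval. They were in 2.34% and 2.18% of closed windows. Their shares of all windows, 1.72% and 1.16%, lie within that limit. With calls made after the correction for GC content, AP-1 letters were in 30.3% of opened and 13.5% of closed windows and NF-kB letters in 7.28% and 1.04%. The GGGAA core was then in 60.9% of opened windows, near its 60.0% of all windows, and in 53.4% of closed windows. CRE and T-box letters were then in 0.383% and 1.53% of opened windows.

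**Figure D5:**
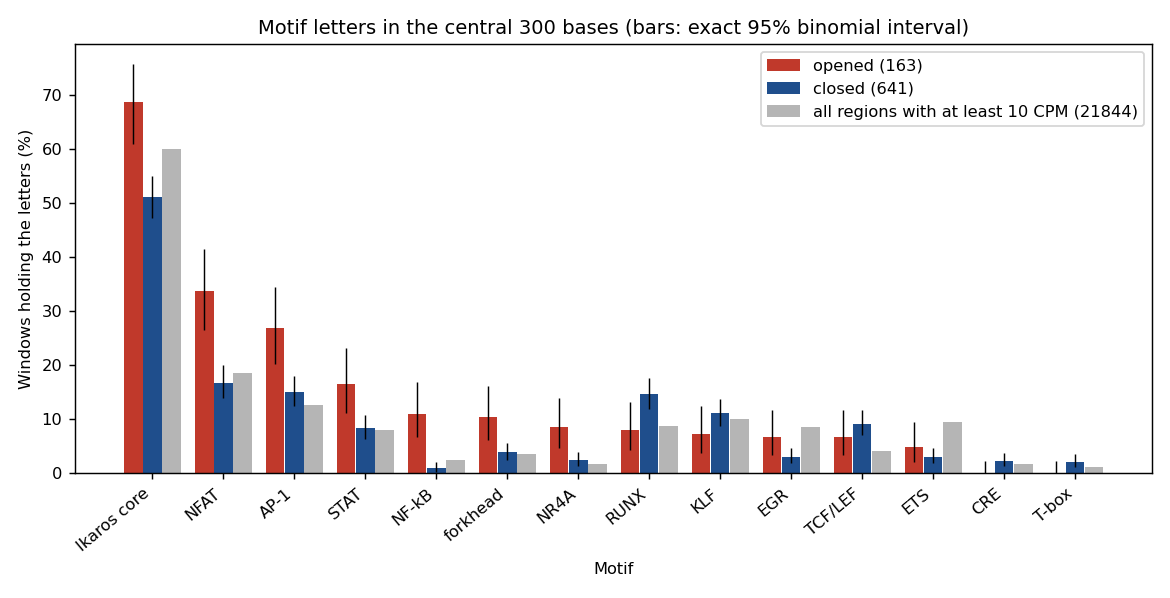
Share of 300-base windows (vertical axis, %) that hold the letters of each of 14 motifs, for 163 opened regions (red), 641 closed regions (blue) and 21844 kept regions (grey), with exact 95% binomial intervals on the opened and closed shares. Opened windows exceed all kept windows for AP-1, NFAT, NF-kB, STAT, forkhead and NR4A letters, and closed windows for TCF/LEF and RUNX letters, where the RUNX shares were 14.8% and 13.7% away from start sites.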

How the data were processed

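The 12 ATAC-seq libraries came from sorted mouse Treg and fall into groups of 3 by their labels. The methods call the replicates biological without saying how mice were pooled, so that p-values measure the spread between these libraries. According to the methods, the authors aligned with bowtie2, removed duplicates and blacklisted regions, called peaks per replicate with MACS2 and joined the peaks of all replicates into common regions. A human build is printed there, whereas the labels give mm9, and 118479 of the 118680 regions lie within the mm9 sequence used here. The authors deposited raw de-duplicated counts per region and library, and an FPKM value that is the count scaled by length and by library total. Their background normalization is not in these counts. A table of the authors' own comparisons (log2 fold change, F, p-value, FDR) was not used.

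Regions with at least 3.6 CPM in 3 libraries were tested with edgeR 4.0.16 (glmQLFit, glmQLFTest, Benjamini-Hochberg) in R 4.3.3, with 4 group means over 12 libraries, library totals as scaling and 24.4 prior degrees of freedom. SE is the absolute log2 fold change over the square root of F. Alternatives used TMM, loess, DESeq2 1.42.0, limma 3.58.1, a replicate block, other filters, thinned counts and left-out libraries. In simulated libraries of 69957 regions, 200 of them shifted by a log2 value of 2, edgeR recovered 192 in the joint comparison and called 9 others. This shift was larger than the median log2 fold change of the openings (1.14) and closings (-1.19) reported here, and no trend with GC content was simulated. Libraries of a group differed by more than sampling noise (chi-square per degree of freedom at least 1.19). Annotation was gencode of mm9, a region's place being start site, exon, intron or intergenic in that order. Mitochondrial matches came from blastn 2.17.0 over at least 90% of a region. The named regions are the 10 largest called changes each way whose libraries do not overlap, the called regions of each gene list (at most 4 per list by size, plus start sites of genes described), and regions over Ikzf1. Further regions are said to be chosen after their values were seen. The regions and lists were chosen with earlier results of these data known.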

Additional observations from a re-analysis of the deposited data

Results flagged for a closer look

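The response to stimulation differed between genotypes, by the interaction test of edgeR at an adjusted p under 0.05, at 24 of the 163 openings, at 93 of the 641 closings and at 3617 of the 21845 kept regions. Of the 3617, 3496 had the more positive response in Ikzf1-cko and 121 the more negative. WT stimulated libraries had the lowest share of reads on the kept regions, 56.6 to 60.4%, against 67.5 to 71.7% in WT ex vivo and 69.9 to 73.3% in Ikzf1-cko stimulated, and the part of this difference in the interaction was not tested. With TMM factors the counts were 20, 66 and 1852, and with loess normalization against abundance 18, 47 and 1585, of which 1057 were more positive and 528 more negative. DESeq2 gave 12, 34 and 1899. Leaving out 1 of the 6 libraries compared gave 13 to 26 openings, 34 to 112 closings and 1817 to 4173 kept regions. Without WT ex vivo replicate 3 the counts were 15, 38 and 1817, without Ikzf1-cko stimulated replicate 3 they were 18, 34 and 1923, without Ikzf1-cko stimulated replicate 2 they were 18, 58 and 2548, and without WT ex vivo replicate 2 they were 13, 62 and 2776. Groups of 3 libraries are too small for a test of single outlying libraries.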

How the results depend on the processing

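The 20 named regions kept their direction and their call under each of the 15 alternatives run on single regions, with a highest adjusted p of 0.000208. Of 93 other called regions printed or counted near single genes, 53 kept the call in every alternative, 40 lost it in at least 1, and none reversed. The counts of openings (163) and closings (641) stayed within 1.5 times under TMM, loess against abundance, DESeq2, limma, the 6 libraries alone, no filter and thinned counts. Leaving out 1 library gave 163 to 195 openings, 636 to 751 closings and 0 to 1 interaction at the named regions, the 1 without Ikzf1-cko stimulated replicate 1. The correction for GC content gave 261 openings and 384 closings. A limit of 5 CPM gave 423 and 1459, of 20 CPM 40 and 192, a mean of 10 CPM over all 12 libraries 86 and 385, 10 CPM in all 6 libraries 26 and 133, and no fold threshold 6165 and 4957. Closings at naive and resting T cell genes numbered 11, 7 with loess against abundance and 4 with the correction for GC content. The median over all regions tested was -0.07 and rose to at most 0.00 under another scaling. Same-numbered libraries of the compared groups had correlated deviations in 2 of 3 pairs (0.30, -0.03 and 0.25), and over all group pairs 6 of 18 exceeded 0.1, so that the numbers were not taken as pairs. According to the methods, sorted Treg were split into a stimulated and an unstimulated part, with no link to replicate numbers. Between ex vivo and stimulated libraries of the same number, the correlations were 0.21, 0 and -0.03 in WT. In Ikzf1-cko they were -0.35, 0.08 and -0.37. With the replicate block 165 regions opened, 647 closed and 1 of the 20 named regions showed an interaction, against 0 without it. Depth limits the weakest regions, and normalization against background bins needs reads not used here.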
